A study of Mus musculus with 7 samples.

Results

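Eci1, Eci2, Ech1, Decr1, Decr2, Etfa, Etfb and Etfdh were examined in duodenal RNA from mice with and without intestinal PPARα. They were chosen by symbol as the auxiliary enzymes for unsaturated fatty acids and the electron transfer flavoprotein (ETF) genes, and all 8 were among the 14795 genes of the deposited table. RNA from the duodenum of 3 control and 4 knockout C57BL/6 mice had been sequenced from polyadenylated, stranded libraries with single reads of 100 bases. Controls (lox/lox) carried the loxP/loxP alleles of Ppara without Cre and, according to the study, were littermates of the knockouts. Knockouts (I-KO) carried the same alleles and the Villin-Cre transgene, which is active in the intestinal epithelium, so other duodenal cells keep Ppara and loss of PPARα cannot be told apart from presence of Cre. All mice were male and on a high-fat diet according to the study, while the labels give neither the diet nor an age and describe food withdrawal in the afternoon and refeeding until midnight.

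β-oxidation shortens saturated acyl-CoAs without help, but natural unsaturated fatty acids leave intermediates whose bonds are in the wrong place or configuration. The isomerases encoded by Eci1 and Eci2 move such a bond to the position the spiral can use, the isomerase encoded by Ech1 shifts conjugated dienes, and the reductases encoded by Decr1 and Decr2 remove one unsaturated bond with NADPH. Eci1 and Decr1 act in mitochondria, Decr2 in peroxisomes, and Eci2 and Ech1 in both. Etfa and Etfb encode the subunits of ETF, the soluble carrier that takes electrons from acyl-CoA dehydrogenases, and Etfdh encodes the membrane enzyme that passes them on to ubiquinone. PPARα is a nuclear receptor activated by fatty acids and is known to induce many genes of fatty acid oxidation in liver and intestine.

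Expression is given as CPM, the authors' read counts scaled to a common total by an adjusted library size. Steps in the low values correspond to between 20744162 and 25866656 reads on the listed genes in a library, and every member had at least 646 reads in every library, at which counting alone gives an SD of 3.9%. The targeted gene, Ppara, was measured at 53.4, 49.3 and 63.2 CPM in the controls (replicates 1 to 3) and at 33.0, 40.6, 47.5 and 69.9 CPM in the knockouts (replicates 1 to 4). The library labelled I-KO replicate 4 thus lay above every control. Such a total also holds reads from outside the floxed part and from cells lacking Cre, and is no check of the deletion. The 10 enterocyte markers, such as Vil1, Alpi and Apoa4, summed to between 57103 and 67217 CPM in controls. In knockouts they summed to between 55755 and 73231 CPM, so the tissue carried its defining markers. Apoa1 and Apoa4 were the highest of the 10 in every library, so the sum says little about the others. Of the 10, 3 had a lower fitted level in I-KO. Among these, Fabp1 was lower in every knockout than in every control. It was at 3380, 3398 and 4228 CPM in controls and at 3215, 2109, 2544 and 2111 CPM in knockouts. Pancreatic acinar markers summed to 393 CPM in I-KO replicate 1 and 92.2 CPM in lox/lox replicate 2, against 26.9 to 42.5 CPM in the others, and results are therefore also given without both libraries. Summed markers of smooth muscle, leukocytes, adipocytes, and goblet and Paneth cells overlapped between the groups. In whole duodenum, fewer cells of a type and less RNA per cell cannot be told apart.

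At an adjusted p of 0.05 by limma, 0 of the 8 genes passed, where 0.0299% of the 13399 tested genes did. The fitted level was lower in I-KO for 7 of the 8, where 49.4% of all tested genes were lower. At an unadjusted p of 0.05 by limma, 5 genes were lower and 0 higher, against 2.42% of all tested genes that were lower. This count was between 2 and 3 in the fits that each left out 1 library. The groups did not overlap for Eci2, Ech1, Decr2 and Etfdh, with every I-KO library below every lox/lox library. Of all tested genes, 3.28% were separated in this direction. The median log2 difference (I-KO minus lox/lox) was -0.20 over the 8 genes and 0.0017 over all tested genes. Counted by library, 6 members lay below every lox/lox library in I-KO replicate 1, 5 in replicate 2, 7 in replicate 3 and 6 in replicate 4. In replicates 3 and 4, 1 member each lay above every lox/lox library, and 0 did in replicates 1 and 2. The share of all tested genes was not computed for single libraries, so these counts are a description only. Without the library labelled I-KO replicate 4, all 8 genes had a lower fitted level and 4 did not overlap. Without both libraries high in acinar markers, 6 were lower, 5 did not overlap and 3 passed an unadjusted p of 0.05 by limma. Groups of fewer libraries separate more easily, and the shares of all tested genes were not computed for these reduced sets. Their counts therefore cannot be set against the 3.28% of the full set.

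**Figure D1:**
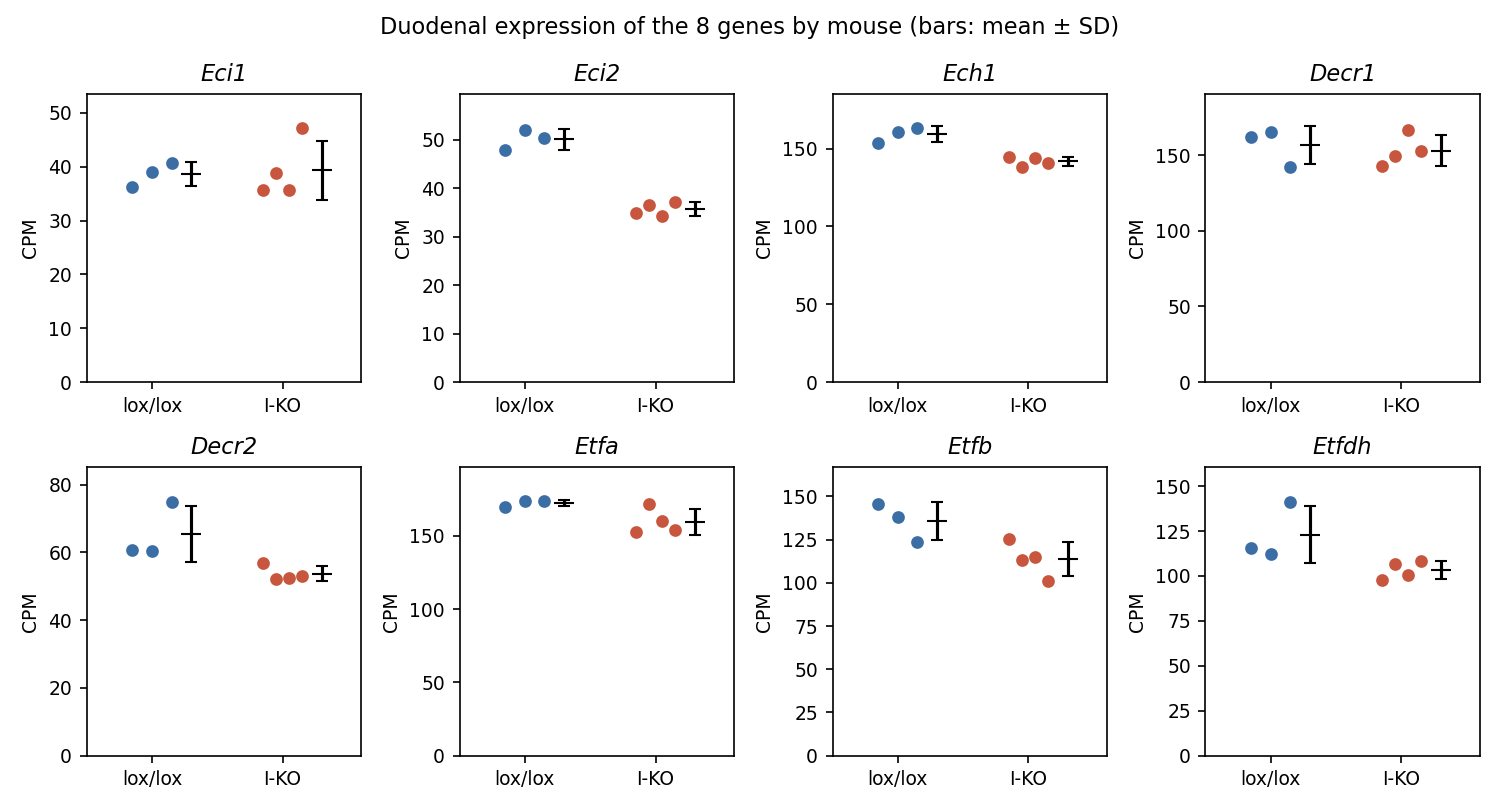
Expression of each gene in CPM (vertical axes, from 0) in 3 lox/lox mice (blue) and 4 I-KO mice (red), 1 point per mouse, with mean and SD beside them. The I-KO points of Eci2, Ech1, Decr2 and Etfdh all lie below the lox/lox points, and those of Eci1, Decr1, Etfa and Etfb overlap them.

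The promoters of 7 members were found in RefSeq on GRCm38.p6, from 250 bases before to 50 after the start, and searched for the element that PPARα binds together with RXR. This element is AGGTCANAGGTCA, 2 copies of AGGTCA with 1 base between them, and its best match on either strand was scored over the 12 fixed letters. Of 32851 promoters of this length, 0.0396% matched fully and 3.86% with at most 2 mismatches. Eci2, the member with the largest difference, is shown beside Etfa, the member with the closest match, with the matched bases in capitals, 5′ to 3′ on the strand of the gene.
Eci2: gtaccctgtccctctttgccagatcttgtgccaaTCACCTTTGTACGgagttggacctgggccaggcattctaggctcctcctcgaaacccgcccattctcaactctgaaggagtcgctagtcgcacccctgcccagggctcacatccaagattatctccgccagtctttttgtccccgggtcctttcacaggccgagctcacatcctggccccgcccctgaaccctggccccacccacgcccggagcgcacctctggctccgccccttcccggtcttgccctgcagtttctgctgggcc
Etfa: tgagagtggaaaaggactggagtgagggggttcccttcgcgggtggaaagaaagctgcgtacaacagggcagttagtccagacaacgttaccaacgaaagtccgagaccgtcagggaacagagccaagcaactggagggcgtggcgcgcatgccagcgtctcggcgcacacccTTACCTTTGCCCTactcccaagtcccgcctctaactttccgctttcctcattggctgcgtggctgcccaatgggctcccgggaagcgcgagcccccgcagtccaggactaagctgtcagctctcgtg
The Eci2 window is chr13:34994095-34994394 on the minus strand, and its best match has 4 mismatches, as close as in 79.8% of all promoters. This window lies inside the annotated Eci2 gene, whose 5′ end is at 35027096, and the sequence at that end was not searched. The same holds for the Etfdh window, chr3:79628718-79629017 on the minus strand, in a gene whose 5′ end is at 79629500. The Etfa window is chr9:55512194-55512493 on the minus strand, and its match, on the opposite strand and beginning 77 bases before the start, has 2 mismatches. The best match had 3 mismatches in Etfb (24.6% of promoters do as well), 4 in Eci1, Ech1 and Etfdh and 5 in Decr2. An exact AGGTCA on either strand was present in 0 of the 7 windows and in 16.3% of all promoters. These matches are a description of the letters in these windows, which leave out introns and more distant sequence.

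Of the isomerases, Eci2 showed the largest difference among the members. It lies on chromosome 13 of GRCm38 from 34977748 to 35027096 on the minus strand. Control replicates 1 to 3 were at 47.8, 52.1 and 50.4 CPM, and knockout replicates 1 to 4 at 34.8, 36.6, 34.2 and 37.2 CPM. The highest knockout was 10.6 CPM below the lowest control, a gap several times the SD within either group. Controls averaged 50.1 ± 2.16 CPM (SD, n = 3) and knockouts 35.7 ± 1.42 CPM (SD, n = 4), or 0.713 of the control level. The log2 difference was -0.48 (standard error 0.08, 95% confidence interval -0.65 to -0.30), with an unadjusted p = 0.000174 and an adjusted p = 0.179 from limma. Eci2 ranked number 13 of the 13399 tested genes by p. The two-sided exact permutation test, over the 35 ways to split 7 mice, gave p = 0.0286, its smallest possible value. With any 1 library left out, the log2 difference stayed between -0.51 and -0.45. The antisense gene Gm16984 overlaps 3.41% of the exon length of Eci2, and the strand setting of the authors' counting is not given in the sources used here.

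Eci1, the mitochondrial isomerase, lies on chromosome 17 from 24426641 to 24439348 and gave no sign of a difference of this size. Controls were at 36.3, 39.0 and 40.7 CPM and knockouts at 35.6, 38.8, 35.8 and 47.2 CPM, with the knockouts on both sides of the controls. Its log2 difference was 0.02 (standard error 0.11, adjusted p = 0.996 from limma), with a 95% confidence interval from -0.24 to 0.27 that leaves room for a change smaller than that of Eci2. The sign of this small value turned without I-KO replicate 4 (-0.0725), without lox/lox replicate 1 (-0.0279) and with equal column totals (-0.0204). Eci3, a paralogue of Eci2 that was not among the members, averaged 77.5 CPM in either genotype (log2 difference 0.0019, adjusted p = 0.999 from limma).

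Ech1, on chromosome 7 from 28825217 to 28832247, had tightly grouped values. These were 154, 161 and 163 CPM in controls and 145, 138, 144 and 141 CPM in knockouts. Every knockout was below every control, by at least 9.04 CPM. The knockout mean of 142 ± 3.13 CPM (SD, n = 4) was 0.890 of the control mean of 159 ± 4.99 CPM (SD, n = 3), a small difference beside a small spread. The log2 difference was -0.17 (standard error 0.07, 95% confidence interval -0.33 to -0.00035), with adjusted p = 0.954 and unadjusted p = 0.0496 from limma. Leaving out 1 library at a time gave unadjusted p-values from 0.0506 to 0.133, none of them past 0.05. The exact permutation test gave p = 0.0286.

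Of the dienoyl-CoA reductases, Decr2 was the one whose groups did not overlap. It encodes the peroxisomal enzyme and lies on chromosome 17 from 26081208 to 26090337. Controls were at 60.8, 60.4 and 74.9 CPM and knockouts at 57.0, 52.3, 52.5 and 53.1 CPM. The gap between the groups was 3.36 CPM, and lox/lox replicate 3 was well above the other controls. The log2 difference of Decr2 was -0.27 (standard error 0.10, 95% confidence interval -0.49 to -0.05), with adjusted p = 0.954 and unadjusted p = 0.0212 from limma and p = 0.0286 in the exact permutation test. It was -0.17 without lox/lox replicate 3 (unadjusted p = 0.0958 from limma). Decr1, encoding the mitochondrial reductase on chromosome 4 from 15917240 to 15945507, was at 162, 165 and 142 CPM in controls and 143, 149, 167 and 153 CPM in knockouts. The highest value was a knockout and the lowest a control, so the groups were mixed. Its log2 difference was -0.03 (standard error 0.09, 95% confidence interval -0.24 to 0.18, adjusted p = 0.982 from limma), and its sign turned without lox/lox replicate 2 (0.0079) and without both libraries high in acinar markers (0.0403).

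All ETF genes had a lower fitted level in knockouts. Etfdh, on chromosome 3 from 79603788 to 79629500, was at 116, 112 and 141 CPM in controls and 97.9, 107, 100 and 108 CPM in knockouts. Every knockout was below every control, and lox/lox replicate 3 was again the highest. The log2 difference was -0.24 (standard error 0.10, 95% confidence interval -0.47 to -0.01), with adjusted p = 0.954 and unadjusted p = 0.0394 from limma and p = 0.0286 in the exact permutation test. Without lox/lox replicate 3 it was -0.14 (unadjusted p = 0.177 from limma), so the size of the difference in Etfdh rests in part on that library. The unadjusted p of Etfdh from limma was also above 0.05 without I-KO replicate 1 (0.0794), 2 (0.0549) or 3 (0.0768). On the opposite strand, the gene 4930579G24Rik overlaps 3.7% of the exon length of Etfdh, and the strand setting of the counting is not given.

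Etfb, on chromosome 7 from 43444083 to 43457800, was at 146, 138 and 124 CPM in controls and 125, 113, 115 and 101 CPM in knockouts. Only I-KO replicate 1 reached into the control range, by 1.64 CPM over the lowest control. The log2 difference was -0.25 (standard error 0.10, 95% confidence interval -0.48 to -0.03), with adjusted p = 0.954 and unadjusted p = 0.0304 from limma and p = 0.0857 in the exact permutation test. The unadjusted p of Etfb from limma was above 0.05 when control replicate 1 (0.114) or 2 (0.0845) or knockout replicate 2 (0.0583) or 4 (0.0699) was left out, and stayed under 0.05 when each of the other 3 was. The annotation has another gene, Gm45233, on the same strand over 53.0% of the exon length of Etfb, so reads there may have been assigned differently by another counting. Etfa, on chromosome 9 from 55454508 to 55512243, was at 170, 174 and 174 CPM in controls and 153, 172, 160 and 154 CPM in knockouts. Here I-KO replicate 2 lay among the controls and the other 3 knockouts below them. The log2 difference of Etfa was -0.11 (standard error 0.08, 95% confidence interval -0.29 to 0.07, adjusted p = 0.954 from limma), with p = 0.0857 in the exact permutation test.

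**Figure D2:**
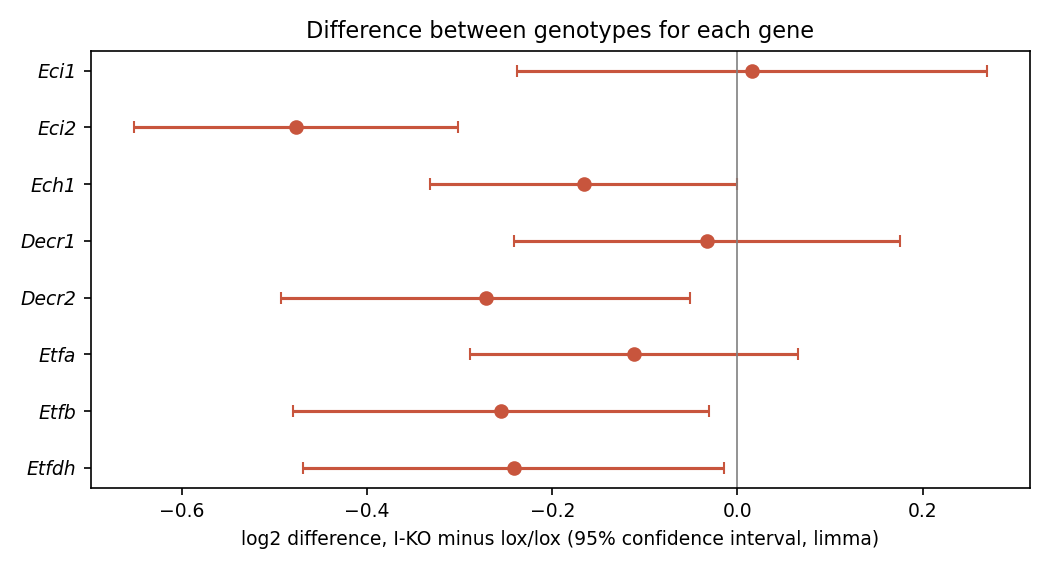
Log2 difference between I-KO and lox/lox (horizontal axis) for each gene, as points with 95% confidence intervals from limma. The interval of Eci2 runs from -0.65 to -0.30, those of Ech1, Decr2, Etfb and Etfdh end just below 0, and those of Eci1, Decr1 and Etfa include 0.

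Ratios within a library do not depend on its scaling and were compared for 4 pairs of members. The log2 ratio of Eci2 to Eci1 was 0.37 ± 0.06 in controls (SD, n = 3) and -0.13 ± 0.14 in knockouts (SD, n = 4). All 3 controls were above 0 and all 4 knockouts below it. The difference in the log2 ratio was -0.50, with p = 0.0286 in the exact two-sided permutation test and p = 0.114 after Benjamini-Hochberg adjustment over the 4 ratios, which is the smallest this design allows for a single ratio. For Decr2 to Decr1 the log2 ratio was -1.26 ± 0.29 (SD, n = 3) in lox/lox and -1.51 ± 0.14 (SD, n = 4) in I-KO duodena, with overlapping groups. The difference of -0.24 was within the spread between mice (exact permutation test, p = 0.229, adjusted p = 0.286). Within ETF, the log2 ratio of Etfb to Etfa differed by -0.14 (exact permutation test, p = 0.286, adjusted p = 0.286) and that of Etfdh to Etfa by -0.13 (exact permutation test, p = 0.257, adjusted p = 0.286), so unequal change of the ETF genes was not detectable with these mice.

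**Figure D3:**
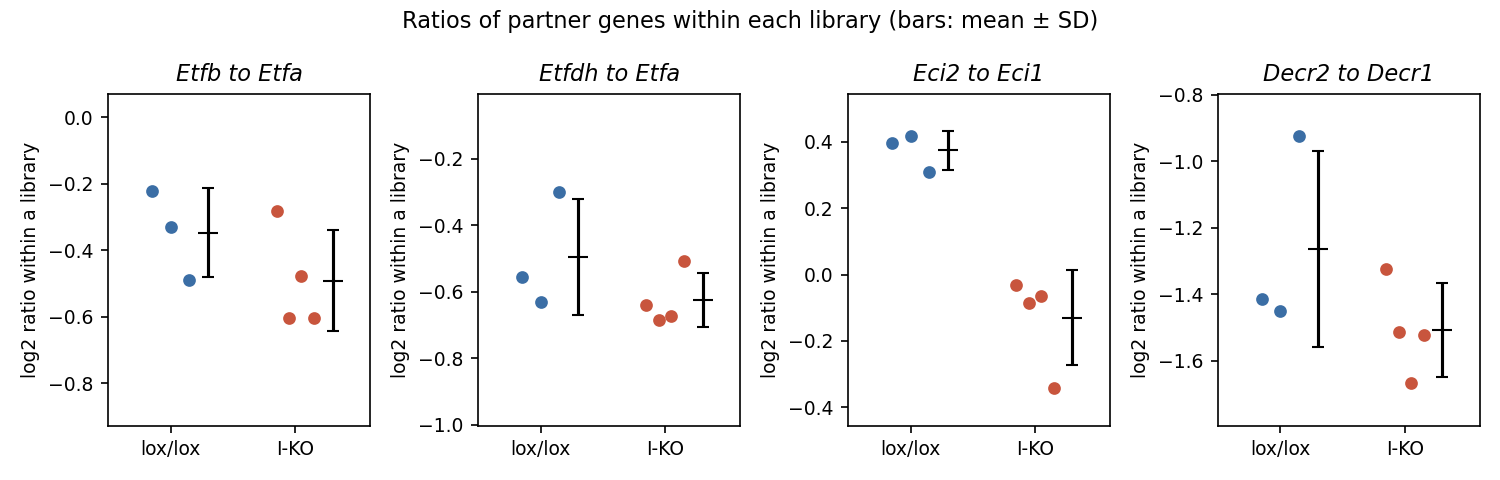
Log2 ratio of 2 genes within a library (vertical axes, each spanning 1 unit) in 3 lox/lox (blue) and 4 I-KO (red) mice, 1 point per mouse, with mean and SD beside them. The groups are apart for Eci2 to Eci1, where the knockouts lie below 0, and overlap for the other 3 ratios.

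Per length, the ETF subunits were the highest of the members. Divided by the length of all annotated exons of the gene, the lox/lox level was 117 ± 9.49 CPM per kb (SD, n = 3) for Etfb, 93.9 ± 1.25 for Etfa and 69.7 ± 2.19 for Ech1. It was 40.3 ± 3.23 CPM per kb for Decr1, 24.6 ± 3.11 for Decr2, 18.2 ± 1.05 for Eci1, 16.4 ± 2.12 for Etfdh and 9.04 ± 0.39 for Eci2 (SD, n = 3). Of neighbours in this order, Eci1 and Etfdh did not differ beyond their spread. With the longest transcript as length, Etfb stayed highest (152 CPM per kb) and Eci2 lowest (17.4 CPM per kb), while Ech1 came above Etfa, and Eci1 and Etfdh above Decr2.

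Of the members, Eci2 had the fewest genes near its expression profile over the 7 libraries. Likeness was measured as the root mean square difference of log2(value + 1) after centring each gene on its mean. The nearest genes to Eci2 were Efnb3, Hadhb and Rfx6, each at 0.08, and 7 genes lay within 0.1. Eci2 also varied most of the members around its own mean (root mean square 0.241, against 0.0756 for Etfa). A gene that varies more tends to have fewer genes within a fixed distance, so these counts do not show how rare a profile is. Efnb3 (2.15 to 3.56 CPM) and Rfx6 (0.86 to 1.72 CPM) were low genes, whose changes log2(value + 1) understates. Hadhb was at 191 to 279 CPM. Hadhb encodes the β subunit of the mitochondrial trifunctional protein, a core enzyme of the spiral. Within 0.1 there were 56 genes for Decr2, 139 for Etfdh and 193 for Etfb, and between 942 and 1950 for Eci1, Ech1, Decr1 and Etfa, whose values vary less around their mean. The nearest gene was 2810006K23Rik for Decr2, Strbp for Etfdh, Tatdn2 for Etfb, Cwf19l2 for Eci1, Sod1 for Ech1, Slc35f6 for Decr1 and 1700020I14Rik for Etfa.

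Genes around the members in the pathway were compared by 7 further lists, none of which had a gene past an adjusted p of 0.05 by limma. Of 9 genes of the mitochondrial spiral 7 had a lower fitted level, where 49.4% of all tested genes did, with a median log2 difference of -0.23. Of the 9, 4 were lower at an unadjusted p of 0.05 by limma and 5 without overlap, beside the 2.42% and 3.28% of all tested genes. Hadha, encoding the α subunit of the trifunctional protein, averaged 363 ± 25.7 CPM in controls (SD, n = 3) and 270 ± 13.7 CPM in knockouts (SD, n = 4; log2 difference -0.43, adjusted p = 0.447 from limma). Acadvl, the very long-chain acyl-CoA dehydrogenase that delivers electrons to ETF, averaged 273 ± 4.58 and 203 ± 13.1 CPM (SD, n = 3 and n = 4; log2 difference -0.42, adjusted p = 0.399 from limma). Of 11 peroxisomal genes 8 were lower, beside 49.4% of all tested genes, with a median of -0.13. Of the 11, 3 were lower at an unadjusted p of 0.05 by limma and without overlap, again beside 2.42% and 3.28% of all tested genes. The thiolase gene Acaa1b (log2 difference -0.99, adjusted p = 0.581 from limma) and the transporter gene Abcd3 (-0.33, adjusted p = 0.83 from limma) led this list. Acaa1b was at 83.3 CPM in lox/lox replicate 3 and at 41.5 and 47.7 CPM in the other controls, above all knockouts.

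The other dehydrogenases that feed ETF or are related to those that do, mostly of amino acid and choline breakdown, lay on the opposite side. Of the 11 tested, 9 had a higher fitted level, where 50.6% of all tested genes did, with a median log2 difference of 0.15. At an unadjusted p of 0.05 by limma 1 was higher, where 2.32% of all tested genes were. That gene was Sardh, sarcosine dehydrogenase, with 9.45 ± 0.85 CPM in controls (SD, n = 3) and 14.9 ± 3.2 CPM in knockouts (SD, n = 4; log2 difference 0.59, adjusted p = 0.755 from limma).

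The steps before and after ETF gave medians near 0. For 7 genes of flavin supply and ETF modification the median log2 difference was -0.01, with 0 at an unadjusted p of 0.05 by limma; Slc52a2, a riboflavin transporter, had 0.24 and Rfk, riboflavin kinase, 0.17. For 8 other enzymes that reduce ubiquinone it was 0.03, and Prodh, proline dehydrogenase, had 0.29 (unadjusted p = 0.0438 from limma) and Sqor 0.12. For 14 genes of complex III and ubiquinone synthesis it was -0.0063. The methyltransferases Coq3 and Coq5 had -0.19 and -0.20, both without overlap, where 3.28% of all tested genes were separated in this direction. Of these 14, 1 was lower at an unadjusted p of 0.05 by limma (Coq3, 0.0499), where 2.42% of all tested genes were. For 12 genes of mitochondrial content the median was 0.0041 with 6 lower and 6 higher, led by the chaperonin gene Hspd1 at -0.29 and Tomm22 at -0.07. Of these 12, 1 was lower at an unadjusted p of 0.05 by limma (Hspd1, 0.047), where 2.42% of all tested genes were.

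**Figure D4:**
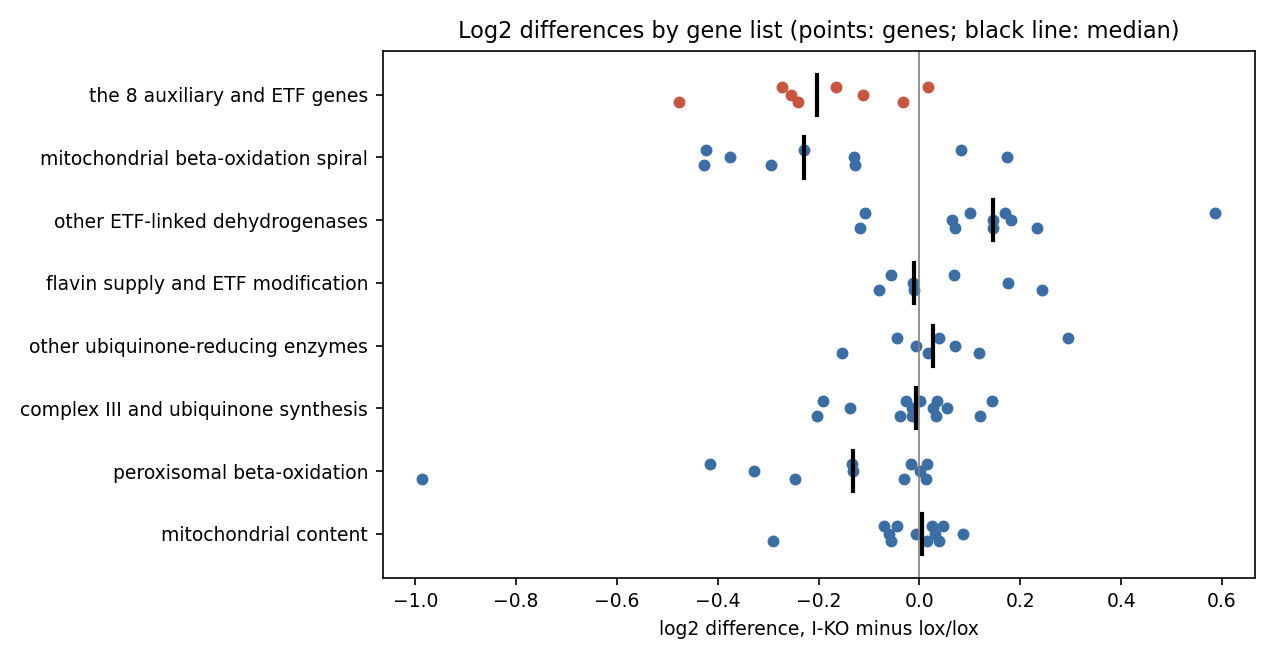
Log2 difference between I-KO and lox/lox (horizontal axis) of each tested gene, by list, with the median of each list as a black line and the 8 members in red. The medians of the members (-0.20), the mitochondrial spiral (-0.23) and the peroxisomal list (-0.13) lie left of 0, that of the other ETF-linked dehydrogenases (0.15) lies right of it, and the other 4 lie near 0.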

How the data were processed

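RNA from duodena of 3 lox/lox and 4 I-KO mice was sequenced, with genotype and replicate number as the labels state them. The authors deposited normalized counts as signal values (CPM to 2 decimals, on adjusted library sizes) of 14795 genes. The submitters' processing notes name TopHat2 2.0.13, HTSeq 0.6.1, Picard 1.80, FastQC 0.11.2 and edgeR with the mm10 genome. The counting options are not given in the sources used here. One row without a gene name was dropped.

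Genes were kept where 3 or more libraries exceeded 1 CPM, which left 13399, all 8 members among them. A model with genotype alone was fitted to log2(value + 1) by limma 3.58.1 (R 4.3.3). Two-sided p-values were adjusted over all tested genes (Benjamini-Hochberg), with a threshold of 0.05. Log2 differences are on the log2(value + 1) scale, which understates the change of low genes. Single values were also compared by exact permutation over the 35 splits of 7 libraries. These p-values measure the spread between mice. No pair of replicates was close enough to be 1 library (chi-square of 13.5 or more per degree of freedom).

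The members, gene lists and tests were chosen with earlier results of these data known. Named are the members, Ppara, in each list the 2 genes with the smallest p (1 such gene is not reported here), and the 3 genes nearest in profile to a member, of which the nearest is given for all but Eci2. Eci3 and Fabp1 were chosen after their values were seen. Of the list genes, 4 were found under older symbols through RefSeq synonyms, with Sqor listed as Sqrdl. Coordinates and exon lengths come from GENCODE M21 on GRCm38, the assembly also called mm10. The fit was tested on simulated counts. Protein features of the members were planned and were not analysed here. Tables and figures used pandas 2.3.3, matplotlib 3.10.9 and numpy 2.4.6 in Python 3.11.15.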

Additional observations from a re-analysis of the deposited data

Results flagged for a closer look

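Among 18 quantities of the 4 knockout libraries, 2 had a library that stood apart, where chance gives about 0.9; the 3 controls are too few for this. The log2 ratio of Eci2 to Eci1 was -0.34 in I-KO replicate 4, against -0.08 to -0.03 in the other I-KO libraries, and its gap to the nearest was 0.831 of the range, just above Dixon's 95% limit for 4 samples. In that library Eci1 had 47.2 CPM, the highest of all 7, and Eci2 had 37.2 CPM, the highest of the knockouts. Summed pancreatic acinar markers were 393 CPM in I-KO replicate 1, with a gap of 0.957 of the range. In that library Eci2 had 34.8 CPM, within the 34.2 to 37.2 CPM of the knockouts.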

How the results depend on the processing

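The alternatives were median-of-ratios size factors, equal column totals, no filter, a pseudocount of 0.5, an intensity trend with robust moderation, the replicate number as a block, each library left out, and both libraries high in acinar markers left out. No control has replicate number 4, so the block fit takes no genotype difference from I-KO replicate 4. Its log2 differences therefore equal those without that library (Eci2 -0.496, Eci1 -0.0725), while its p-values differ. Eci2 kept its direction and an unadjusted p below 0.05 by limma in all 14 fits, with an adjusted p between 0.0631 (trend and robust moderation) and 0.9997, so it passed the adjusted threshold in none. The number of members at an unadjusted p of 0.05 by limma was 5 and became 2 to 3 with each library left out, 3 without both acinar-high libraries and 1 with the replicate block; fits with fewer samples have fewer degrees of freedom. The number of genes called over all genes was 4, and 9 with the trend and robust moderation; the cause was not tested. The log2 difference of Eci1 reversed to -0.0204 with equal column totals, -0.0725 with the replicate block, and between -0.0725 and 0.0597 with each library left out. That of Decr1 reversed to 0.0403 without both acinar-high libraries, and lay between -0.10 and 0.0079 with each library left out. The other 6 members stayed lower in all 14 fits. The ratio of the highest to the lowest level per kb in lox/lox was 12.9 by the length of all exons, and 8.73 by the longest transcript. Replicate numbers were not treated as pairs in the main fit, since the labels state no pairing. Same-numbered libraries had correlations of -0.01, 0.18 and -0.01 in their deviations from the group means. Other combinations ranged from -0.35 to 0.28. The study used lox/lox littermates as controls for its intestinal knockouts, without saying which of these mice shared a litter or cage. With so few libraries these correlations cannot decide that. The limma confidence intervals of the members reached a median of 0.215 (log2) to either side. Differences below that were mostly not detectable in so few mice, even at an unadjusted p of 0.05. At the adjusted threshold the limit was higher, since Eci2 at -0.48 did not pass it. Planned tests on read numbers with edgeR and DESeq2 were not run, since in 5 libraries fewer than 95% of the low values came close enough (0.1 of a step) to whole reads.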
